A study of Homo sapiens with 12 samples.

Results

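In 786-O cells, 98 of 17085 genes were silent or close to silent with DMSO and gave reads after treatment with SGI-1027. A gene belonged to this set when its counts summed over the 3 DMSO libraries came to at most 9, and its counts summed over the 3 SGI-1027 libraries came to at least 20 and to at least 3 times the DMSO sum. A total of 3879 genes met the DMSO limit, so most genes that were silent with DMSO were not in the set. Because these counts chose the genes, the levels with DMSO and SGI-1027 are described here and not tested.

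786-O is an established human clear cell renal carcinoma line, recorded as wild type, and all libraries came from it. It was grown for 24 h with vehicle (DMSO), with everolimus, which blocks the kinase mTOR, with SGI-1027 at 1.5 µM, which blocks DNA methyltransferases, or with these drugs together. The sample records and the paper give 5 µM everolimus for the single drug and the combination, whereas the treatment protocol gives 10 µM for the single drug. There were 3 RNA sequencing libraries in each of the 4 groups, and nothing states that they came from separate cultures, so p values measure the spread between these libraries, which may be technical. Library totals ran from 37046231 to 41516976 counts, and no library stood apart in depth. In their counts across genes, SGI-1027 replicate 3 and DMSO replicate 1 stood further from the other replicates of their groups, with a chi-square per gene of 16.5 and 16.2 for the pairs of SGI-1027 replicate 3 against 3.05 for replicates 1 and 2, and of 10.4 and 13.3 for the pairs of DMSO replicate 1 against 3.62 for replicates 2 and 3. With the limits scaled to the number of libraries left, 83 genes met them without SGI-1027 replicate 3 and 102 without DMSO replicate 1. The 10 kidney epithelium and renal carcinoma markers, such as PAX8 and VIM, were detected in every group, with 352245 to 429999 counts summed per library. VIM made up most of this sum, and single markers differed between groups. In the order DMSO, everolimus, SGI-1027 and combination, CDH6 had sums of 39301, 47704, 44002 and 21549 and CA12 13370, 7523, 6685 and 7964. EPAS1 went the other way, with 19730, 17581, 29434 and 33466.

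Many tissue-specific genes are kept off in cells that do not use them. Repressive chromatin and methylation of cytosines in CpG dinucleotides take part in this, and DNA methyltransferases write and copy that mark. Genes of the germ line, the placenta and blood cells are well known examples of genes that tumour cells can express outside their tissue. In bulk RNA a few reads can come from many cells at a low level or from few cells at a higher one, and these cannot be told apart here.

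Even after they were switched on, the genes stayed at low levels. The SGI-1027 sums ran from 20 to 124 counts with a median of 28, and 55 of the 98 genes lay between 20 and 29 counts. Only 14 genes reached 50 counts. On the FPKM scale, which corrects for gene length, their mean level with SGI-1027 had a median of 0.0886, against 5.05 for all 13923 genes tested. The DMSO sums ran from 1 to 9 counts with a median of 6, and 56 genes had at least 1 read in every DMSO library, so silent means few reads and not none.

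**Figure D1:**
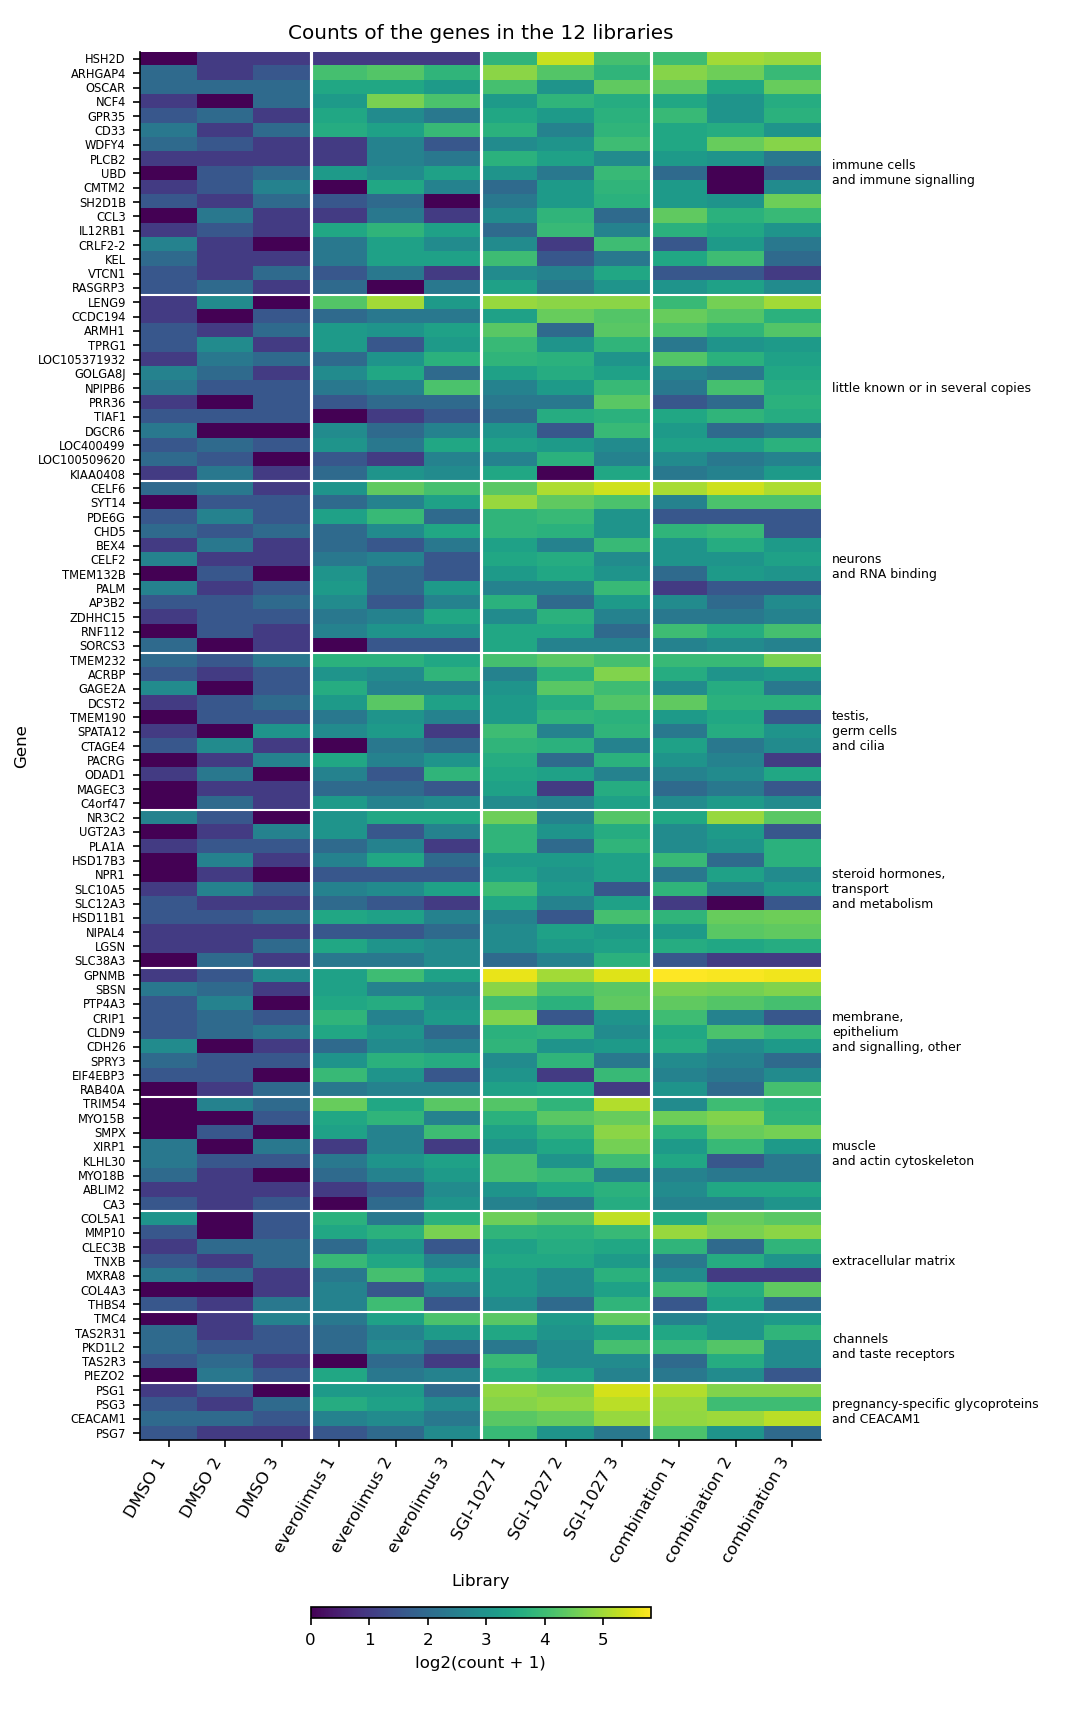
Counts of the genes of the set that are reported here (vertical axis, grouped by role) in the 12 libraries (horizontal axis), coloured by log2(count + 1). The DMSO columns are the darkest, the everolimus columns lie between, and the SGI-1027 and combination columns are the brightest for GPNMB, CELF6, PSG1 and CEACAM1.

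The libraries of each group held similar totals over the set. Counts summed over the 98 genes were 188, 194 and 186 in the DMSO libraries. With everolimus they were 583, 678 and 646. With SGI-1027 they were 1149, 993 and 1308. With the combination they were 1046, 1076 and 1081. The totals with everolimus lay between the DMSO and SGI-1027 totals with no overlap, and the combination libraries lay within the range of the SGI-1027 libraries. Everolimus was the lowest of the 3 treated groups for 66 of the 98 genes, and all SGI-1027 libraries lay above all everolimus libraries in 34 (34.7%, against 20.2% of all genes tested), which the choice of genes for high SGI-1027 counts favours.

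**Figure D2:**
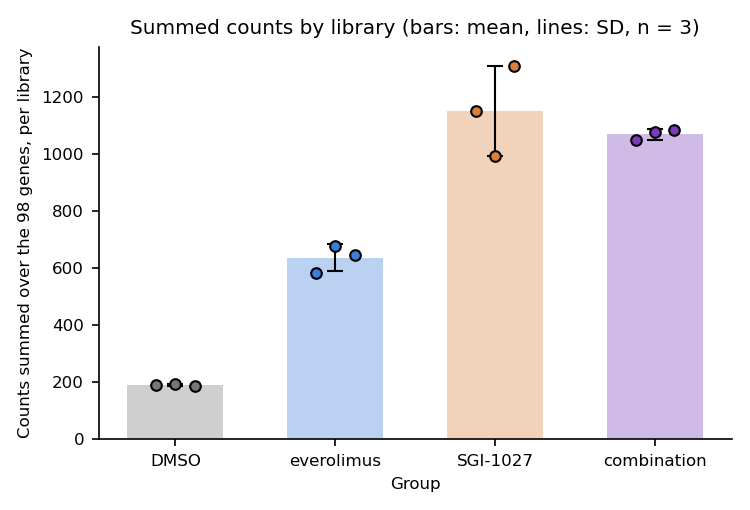
Counts summed over the 98 genes in each library (points), with the mean (bar) and SD (line) of 3 libraries per group. The DMSO libraries hold 186 to 194 counts, the everolimus libraries 583 to 678, the SGI-1027 libraries 993 to 1308 and the combination libraries 1046 to 1081.

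Agreement between replicates differed from gene to gene. In 82 genes all SGI-1027 libraries lay above all DMSO libraries in CPM (counts scaled to library size), which the rule favours (31.1% of all genes tested did so). In 31 genes more than 50% of the SGI-1027 reads came from 1 library, and that library was replicate 3 in 19 of them, replicate 1 in 6 and replicate 2 in 6. The 5 most uneven genes had 68.2% to 73.5% of their reads in 1 library. CRIP1, a LIM-domain protein, had 25, 2 and 7 counts in the SGI-1027 libraries. KEL, the Kell blood group protease, had 15, 2 and 4. PRR36 had 4, 4 and 19, HSD11B1 had 5, 2 and 16, and the second listed copy of the cytokine receptor gene CRLF2 had 6, 1 and 15. For these 5 genes the level with SGI-1027 alone rests on a single library.

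The limits cut through a continuous range. GPNMB, COL5A1 and TMEM232 were just inside with a DMSO sum of 9, whereas ACP5 was left out with a DMSO sum of 10 although its SGI-1027 sum was 174 and its combination sum 361. PREX1 and NEURL2 also had 10 DMSO counts and were left out. C4orf47, RAB40A and SLC38A3 were in with exactly 20 SGI-1027 counts, whereas PLAAT2, AARD and EFNB3 had 19. CMTM2 and PALM were in at exactly 3 times their DMSO sums, with 24 counts against 8, SLC10A5 was just over that limit with 25 against 8, and MB, ZNF880 and ABCG4 just under it. When the rule was turned round, 10 genes had at least 20 counts with DMSO and at most 9 with SGI-1027. Among them XAGE1B, a cancer-testis gene, had a sum of 46 with DMSO, 58 with everolimus, 6 with SGI-1027 and 96 in the combination, and CHST4, a sulfotransferase, had a sum of 44 with DMSO and 1 with SGI-1027.

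Because SGI-1027 acts on DNA methylation, CpG content near the transcription start was described. RefSeq windows of 300 bases, from 250 before to 50 after the start (GRCh38.p14), were found by symbol for 71 of the 98 genes. The ratio of observed to expected CpG had a median of 0.362 in these windows, against 0.828 for all tested genes with a window, 0.421 for the other genes that were silent with DMSO and 0.467 for those of the other silent genes that had enough reads to be tested. A ratio of at least 0.6, taken here as CpG-rich, was found in 35.2% of the windows of the set, 79.3% of those of all tested genes, 37.4% of those of the other silent genes and 42.2% of those of the other silent genes that were tested. Thus the windows of the set were poorer in CpG than those of all tested genes, and their ratios lay nearer to those of the other genes silent with DMSO, some of which came on with another treatment. These shares are descriptions, and methylation was not measured in these libraries.

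**Figure D3:**
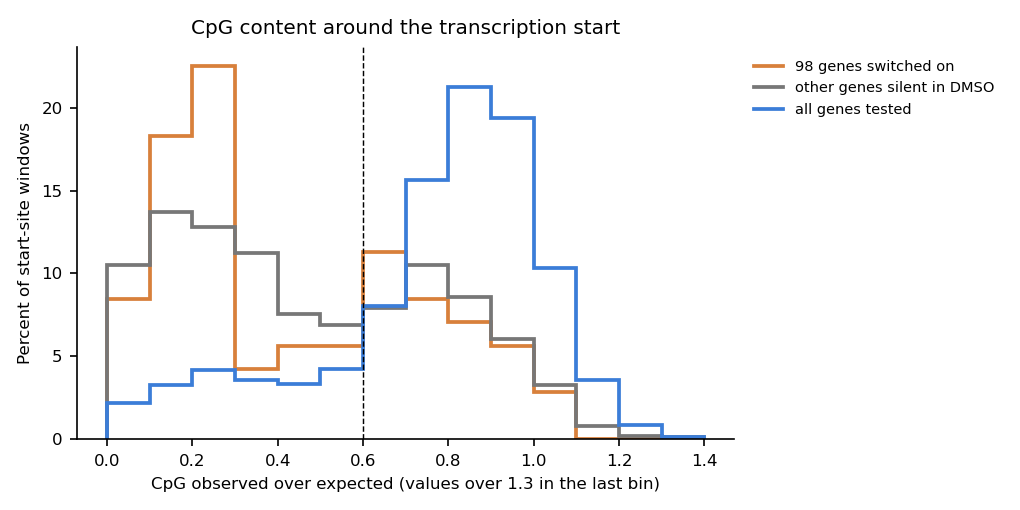
Distribution of the CpG observed over expected ratio (horizontal axis) in 300-base windows around the start, as the percent of windows (vertical axis) for the 98 genes, other genes silent with DMSO and all genes tested. Most windows of the set lie left of the dashed line at 0.6, where 35.2% lie at or right of it, against 79.3% of all genes tested.

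The windows of 5 genes that were higher in the combination than with everolimus are printed to show both kinds, with each CpG in capitals. GPNMB (chr7:23246525-23246824, plus strand), PSG3 (chr19:42740432-42740731, minus strand), CEACAM1 (chr19:42528432-42528731, minus strand) and CCL3 (chr17:36090094-36090393, minus strand) hold 3 CpG each, and CELF6 (chr15:72320108-72320407, minus strand) holds 29.
GPNMB: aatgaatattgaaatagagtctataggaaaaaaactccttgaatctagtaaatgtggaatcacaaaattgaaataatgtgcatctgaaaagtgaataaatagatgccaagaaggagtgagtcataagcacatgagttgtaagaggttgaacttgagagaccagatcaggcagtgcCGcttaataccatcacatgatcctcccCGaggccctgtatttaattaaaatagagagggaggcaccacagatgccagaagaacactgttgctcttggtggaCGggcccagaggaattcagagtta
PSG3: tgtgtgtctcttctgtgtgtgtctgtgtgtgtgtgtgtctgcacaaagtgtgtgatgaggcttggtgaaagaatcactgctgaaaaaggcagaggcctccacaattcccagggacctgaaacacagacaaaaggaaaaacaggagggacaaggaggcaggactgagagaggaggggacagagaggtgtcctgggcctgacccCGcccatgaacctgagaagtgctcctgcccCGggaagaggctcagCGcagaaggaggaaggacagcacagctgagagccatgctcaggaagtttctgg
CEACAM1: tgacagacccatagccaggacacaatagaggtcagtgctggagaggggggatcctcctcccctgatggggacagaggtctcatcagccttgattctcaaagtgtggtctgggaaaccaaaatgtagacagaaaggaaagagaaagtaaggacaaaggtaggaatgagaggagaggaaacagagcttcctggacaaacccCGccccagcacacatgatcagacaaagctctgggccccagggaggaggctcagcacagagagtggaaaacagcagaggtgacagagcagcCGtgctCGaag
CCL3: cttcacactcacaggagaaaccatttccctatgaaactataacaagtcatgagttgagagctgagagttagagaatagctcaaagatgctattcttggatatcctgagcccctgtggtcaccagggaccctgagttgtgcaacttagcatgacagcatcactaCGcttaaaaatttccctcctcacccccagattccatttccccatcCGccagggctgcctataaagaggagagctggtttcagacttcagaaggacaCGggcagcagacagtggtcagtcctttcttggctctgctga
CELF6: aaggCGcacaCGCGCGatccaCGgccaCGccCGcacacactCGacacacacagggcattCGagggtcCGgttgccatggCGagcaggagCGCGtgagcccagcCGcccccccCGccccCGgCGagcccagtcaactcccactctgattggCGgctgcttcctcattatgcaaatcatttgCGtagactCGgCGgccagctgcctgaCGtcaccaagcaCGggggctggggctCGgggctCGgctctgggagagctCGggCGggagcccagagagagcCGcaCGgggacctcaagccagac

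Short motifs were looked for on both strands of the same windows. TATAAA, the core of the TATA box, was in 14.1% of the windows of the set, 6.06% of those of all tested genes and 15.3% of those of the other silent genes. CACGTG, the E-box of the MiT and MYC factors, was in 14.1%, 9.87% and 6.83%. The paired GAAA core of interferon-stimulated response elements, with any 2 bases between, was in 4.23%, 3.03% and 3.36%. TGATGNAA, the core of ATF4 composite sites, was in 4.23%, 1.85% and 3.29%. The first 2 shares of the set are 10 windows each and the last 2 are 3 windows each. In the other silent genes that were tested, the shares were 12.7%, 8.75%, 3.06% and 3.28% in the same order of motifs. No pair of genes of the set were neighbours in RefSeq gene order among the genes of the table. Chromosome 19 held 16 of the 94 genes with a RefSeq entry (17%, against 7.38% of all genes of the table) and the X chromosome held 8 (8.51%, against 3.87%). PSG3 and CEACAM1, related genes of the CEA family, both lie on chromosome 19, so its genes are not all of separate families. The chromosome shares of the other silent genes were not counted.

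Part of the set was also on with everolimus alone. The limits used for SGI-1027 were met with everolimus by 36 of the 98 genes and with the combination by 63. A total of 30 genes met them with both, 6 with everolimus only, 33 with the combination only and 29 with neither. All everolimus libraries lay above all DMSO libraries in 57 genes (58.2%, against 28.9% of all genes tested), and all combination libraries lay above all DMSO libraries in 65 (66.3%, against 33.2%). These comparisons share the DMSO libraries that chose the genes. Beyond the set, 22 further genes met the limits with everolimus and 50 with the combination.

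The combination against everolimus was the comparison that used no library of the rule, and it compares libraries given both drugs with libraries given everolimus alone. By the sample records and the paper the everolimus dose was the same in both groups, whereas by the treatment protocol it was 10 µM alone and 5 µM in the combination. If the protocol holds, the addition of SGI-1027 and a lower everolimus dose cannot be told apart here. A total of 29 of the 98 genes were higher in the combination at the study's cut-off, an unadjusted p under 0.05 and a log2 fold change of 1 or more in size (29.6%, against 2.70% of all genes tested). Another 5 were lower (5.10%, against 1.78%). With p adjusted over all 13923 genes, 20 were higher (20.4%, against 2.43%) and 4 lower (4.08%, against 1.52%). The median log2 fold change was 0.65 over the set and 0.01 over all genes. All combination libraries lay above all everolimus libraries in 33 genes (33.7%, against 26.4% of all genes), among them 27 of the 29 that were higher. When filterByExpr, which asks for more reads, replaced the minimum of 20 counts, 35 of the 98 genes were left, of which 17 were higher and 0 lower. Over the 12648 genes that it left, 302 were higher and 161 lower. Limma on log2(FPKM + 0.1) found 8 genes of the set higher and 1 lower, against 224 and 78 over all genes. The added 0.1 is above the level of most genes of the set.

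**Figure D4:**
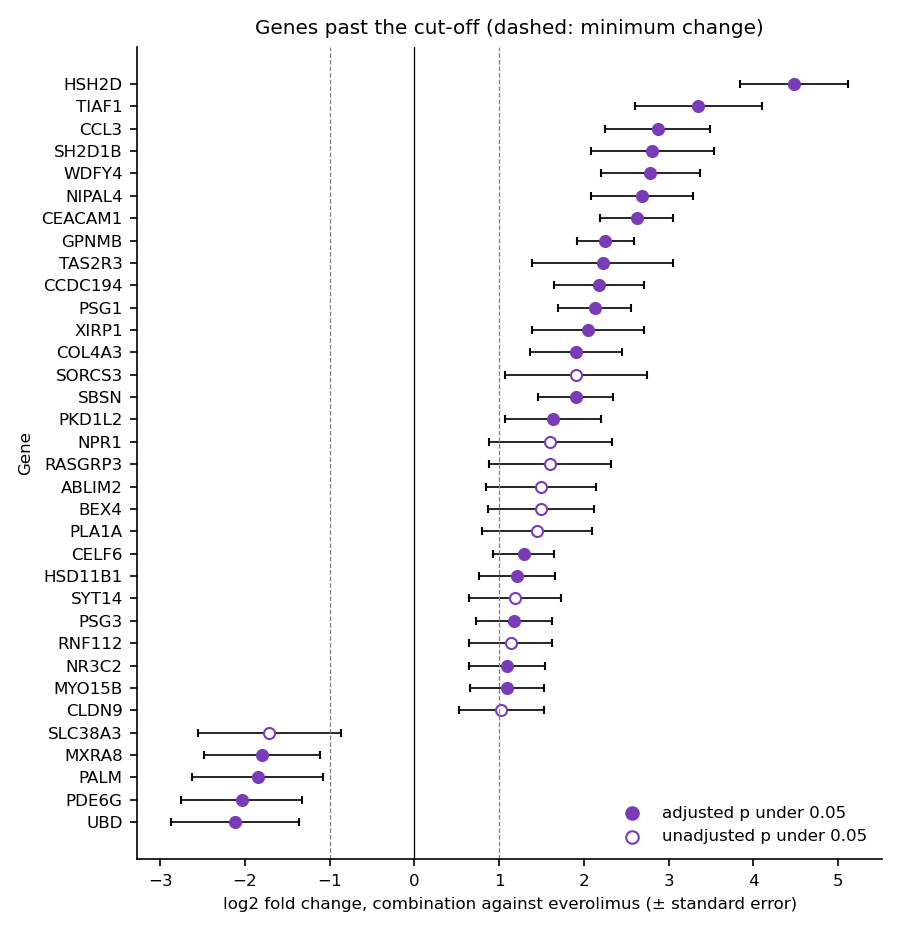
Log2 fold change of the combination against everolimus (horizontal axis, with standard error, 3 libraries per group) for the 34 genes past the cut-off. Filled points have an adjusted p under 0.05 (20 higher, 4 lower) and open points only an unadjusted one.

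The membrane and secreted proteins held the gene with the most SGI-1027 reads of the set. GPNMB, a glycoprotein of lysosomes and melanosomes, had 1, 2 and 6 counts with DMSO, 9, 15 and 9 with everolimus, 48, 31 and 45 with SGI-1027, and 55, 53 and 50 with the combination. The groups with SGI-1027 lay far above the groups without it, with no overlap, which the rule favours for SGI-1027 alone. GPNMB was higher in the combination than with everolimus by a log2 fold change of 2.25 ± 0.34 (SE, edgeR, adjusted p = 5.1e-07). SBSN, suprabasin of the epidermis, had 9, 5 and 5 counts with everolimus and 24, 23 and 25 with the combination, a log2 fold change of 1.90 ± 0.44 (adjusted p = 0.00045). CLDN9, a claudin of tight junctions, had 10, 7 and 3 against 10, 17 and 14, which overlapped and passed the cut-off only unadjusted. Its call was lost in 9 of the 13 alternatives, DESeq2 among them. Of the 9 genes of this group 3 were higher and 0 lower (29.6% and 5.10% of the set, 2.70% and 1.78% of all genes tested). CRIP1 had one of the highest levels per length with SGI-1027, 0.428 ± 0.452 FPKM (SD, n = 3), which its spread exceeds.

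SPRY3, a Sprouty antagonist of receptor kinase signalling, went the other way in level. It had 3, 2 and 2 counts with DMSO, 7, 12 and 11 with everolimus, 6, 13 and 4 with SGI-1027, and 6, 5 and 3 with the combination. The everolimus sum per library size was 1.30 times the SGI-1027 sum, and the fold change of -1.07 ± 0.56 did not pass the test (edgeR, adjusted p = 0.12).

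Of the 4 genes of the CEA family in the set, 3 were higher in the combination than with everolimus and PSG7 did not pass the test. Over the whole set 29.6% were higher (2.70% of all genes tested). Pregnancy-specific glycoproteins (PSG) are secreted by the placenta, and CEACAM1 is an adhesion receptor of epithelia and leukocytes. PSG1 had 1, 2 and 0 counts with DMSO, 8, 8 and 3 with everolimus, 28, 25 and 42 with SGI-1027, and 34, 25 and 25 with the combination. PSG3 had 2, 1 and 3 with DMSO, 11, 9 and 6 with everolimus, 26, 28 and 36 with SGI-1027, and 29, 15 and 15 with the combination. CEACAM1 had 3, 3 and 2 with DMSO, 5, 6 and 4 with everolimus, 19, 21 and 29 with SGI-1027, and 28, 30 and 36 with the combination. In these 3 genes every library with SGI-1027 lay above every library without it, which the rule favours for SGI-1027 alone. Only the combination against everolimus is free of the rule, and 26.4% of all genes tested showed no overlap there. The combination exceeded everolimus by a log2 fold change of 2.62 ± 0.43 for CEACAM1 (edgeR, adjusted p = 3.0e-06), 2.13 ± 0.43 for PSG1 (adjusted p = 9.1e-05) and 1.18 ± 0.45 for PSG3 (adjusted p = 0.030). The PSG3 call was lost without everolimus replicate 3 (0.98) or without combination replicate 1 (0.78). PSG7 had 2, 3 and 6 counts with everolimus and 17, 7 and 3 with the combination, which overlapped (adjusted p = 0.11).

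The table held 10 PSG genes, of which 8 were silent with DMSO and 6 had enough reads to be tested. Of those 6, 5 were higher in the combination than with everolimus at the unadjusted cut-off (2.70% of all genes tested were) and 0 were lower. Among the 5, PSG4 had sums of 3 with everolimus and 14 with the combination and did not pass after adjustment (edgeR, adjusted p = 0.074). PSG5 and PSG9 lay outside the set only by their DMSO sums of 15 and 21. PSG5 gave sums of 69 with everolimus, 235 after SGI-1027 and 269 in the combination, and was higher in the combination by a log2 fold change of 1.96 (edgeR, adjusted p = 3.1e-08). PSG9 gave sums of 44, 136 and 120 and a log2 fold change of 1.45 (adjusted p = 0.00095). PSG genes are near-identical copies, so the counting could have split or shared reads between them, and how it treated such reads is not given in the sources used here. These family counts were made after the values had been seen.

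The 18 genes of immune cells and immune signalling were the largest named group, and 5 were higher in the combination than with everolimus, 4 of them after adjustment. Over the whole set 29.6% were higher and 20.4% after adjustment (2.70% and 2.43% of all genes tested). HSH2D, an SH2 adaptor of haematopoietic cells, had 0, 1 and 1 counts with DMSO, 1, 1 and 1 with everolimus, 13, 39 and 16 with SGI-1027, and 15, 31 and 29 with the combination. It stayed at the DMSO level with everolimus and was high in every library with SGI-1027, which the rule favours for SGI-1027 alone. The ratio of the combination to everolimus was 25.1 with a 95% counting interval of 8.27 to 124, and edgeR gave an adjusted p of 1.8e-07. HSH2D shares 8.73% of its exon bases with RAB8A on the same strand, and RAB8A had sums of 15092, 10618, 10063 and 9304 counts in the order DMSO, everolimus, SGI-1027 and combination. WDFY4, which acts in antigen presentation by dendritic cells, had 1, 5 and 2 counts with everolimus and 10, 21 and 26 with the combination, a log2 fold change of 2.79 ± 0.58 (edgeR, adjusted p = 0.00012). SH2D1B, the adaptor EAT-2 of natural killer cells, had 2, 3 and 0 against 8, 7 and 22, a log2 fold change of 2.81 ± 0.72 (adjusted p = 0.0015).

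CCL3, the chemokine MIP-1 alpha, had 0, 4 and 1 counts with DMSO, 1, 4 and 1 with everolimus, 6, 13 and 3 with SGI-1027, and 20, 12 and 14 with the combination. The SGI-1027 libraries overlapped with those of DMSO, and the combination lay above everolimus with no overlap. The log2 fold change was 2.87 ± 0.62 (edgeR, adjusted p = 0.00020). Its near copy CCL3L3 gave sums of 5, 6, 17 and 28 in the same order of groups, and reads may have been shared between them. WDFY4 and CCL3 were also 2.03 and 2.08 times as high in the combination as with SGI-1027 alone, which is a description since SGI-1027 libraries chose them.

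The everolimus sum per library size was above the SGI-1027 sum in 10 of the 98 genes, among them the immune genes NCF4, IL12RB1 and CD33. Most other immune genes of the set had lower everolimus sums, such as CCL3 at 0.271 and WDFY4 at 0.284 times the SGI-1027 sum. NCF4, the p40phox subunit of the NADPH oxidase, had 1, 0 and 3 counts with DMSO, 8, 24 and 17 with everolimus, 8, 13 and 11 with SGI-1027, and 10, 7 and 11 with the combination. IL12RB1, a receptor subunit for interleukin-12, had sums of 4 with DMSO, 32 with everolimus, 22 after SGI-1027 and 29 in the combination. CD33, a sialic acid receptor of myeloid cells, had sums of 8, 34, 30 and 28. The everolimus sums per library size were 1.52, 1.44 and 1.13 times the SGI-1027 sums for NCF4, IL12RB1 and CD33. Neither they nor ARHGAP4, a GTPase-activating protein of blood cells with sums of 6, 47, 58 and 62, passed the test of the combination against everolimus (adjusted p = 0.17, 0.85, 0.67 and 0.42).

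UBD, the ubiquitin-like modifier FAT10, was on with either single drug and low with both. It had 0, 2 and 3 counts with DMSO, 8, 6 and 9 with everolimus, 7, 4 and 14 with SGI-1027, and 3, 0 and 2 with the combination. It was lower in the combination than with everolimus by a log2 fold change of -2.12 ± 0.75 (edgeR, adjusted p = 0.021), a call that was lost without combination replicate 2 (-1.55). UBD shares 66.4% of its annotated exon bases with GABBR1 on the same strand in GENCODE 29, and GABBR1 had sums of 1311, 2293, 2915 and 3140 counts in the order DMSO, everolimus, SGI-1027 and combination. Of the leukocyte markers, CD3E and PTPRC summed to at most 1 count in any group. The myeloid markers CD14 and ITGAM had reads in every group, with sums of 29, 13, 26 and 7 for CD14 and 24, 35, 36 and 28 for ITGAM in the same order, and their part in the values of the immune genes was not tested.

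Of the 12 genes of neurons and RNA binding, 5 were higher and 2 lower, and after adjustment 1 was higher and 2 lower. At the unadjusted cut-off 29.6% of the set were higher and 5.10% lower (2.70% and 1.78% of all genes tested). CELF6, an RNA-binding splicing regulator, had 3, 4 and 1 counts with DMSO, 7, 20 and 16 with everolimus, 19, 33 and 41 with SGI-1027, and 32, 40 and 33 with the combination. All combination libraries lay above all everolimus libraries, with a log2 fold change of 1.29 ± 0.36 (edgeR, adjusted p = 0.0031), which fell to 0.99 without everolimus replicate 1. SYT14, BEX4, RNF112 and SORCS3 passed only the unadjusted cut-off, and none of the 4 passed it with DESeq2. PDE6G, the inhibitory subunit of rod phosphodiesterase, had 9, 14 and 3 counts with everolimus, 13, 14 and 7 with SGI-1027 and 2, 2 and 2 with the combination. It was lower in the combination than with everolimus by a log2 fold change of -2.04 ± 0.71 (adjusted p = 0.018), a call lost without everolimus replicate 2 (-1.57). PALM, the membrane protein paralemmin, had 8, 3 and 8 against 1, 2 and 2, a log2 fold change of -1.85 ± 0.77 (adjusted p = 0.049), and its call was lost with DESeq2, with limma on FPKM, and without everolimus replicate 1 or 3 or combination replicate 1. The neuron markers RBFOX3, SNAP25 and SYT1 summed to 286 to 307 counts per library with DMSO, 234 to 270 with everolimus, 245 to 298 with SGI-1027 and 213 to 234 with the combination. SNAP25 made up most of this, with sums of 781, 634, 602 and 437 in that order, whereas SYT1 had sums of 91, 126, 212 and 212 and was higher in the combination than with everolimus by a log2 fold change of 0.75 (edgeR, adjusted p = 0.0079), below the cut-off in size. The part of these markers in the values above was not tested.

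Of the 11 genes of steroid hormones, transport and metabolism, 5 were higher and 1 lower (29.6% and 5.10% of the set, 2.70% and 1.78% of all genes tested). After adjustment 3 were higher and 0 lower. HSD11B1, which turns cortisone into cortisol, had 2, 2 and 3 counts with DMSO, 10, 9 and 5 with everolimus, 5, 2 and 16 with SGI-1027, and 13, 21 and 22 with the combination. The combination lay above everolimus with no overlap, with a log2 fold change of 1.21 ± 0.45 (edgeR, adjusted p = 0.026), which fell to 0.98 without everolimus replicate 3. Its combination sum was 2.43 times the SGI-1027 sum per library size, the highest ratio of the set. NIPAL4, a magnesium transporter, had 2, 2 and 3 against 8, 19 and 20, a log2 fold change of 2.69 ± 0.60 (adjusted p = 0.00031), and was 2.04 times as high as with SGI-1027 alone. NR3C2, the mineralocorticoid receptor of the distal nephron, had 7, 10 and 10 against 10, 29 and 19, a log2 fold change of 1.09 ± 0.45 (adjusted p = 0.044), and its call was lost in a fit of all 12 libraries and without everolimus replicate 1 or combination replicate 2.

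The 3 solute carriers of the set showed no common pattern. SLC12A3, the thiazide-sensitive sodium chloride cotransporter of the distal tubule, had 2, 1 and 1 counts with DMSO, 3, 2 and 1 with everolimus, 10, 5 and 9 with SGI-1027, and 1, 0 and 2 with the combination. Its reads were thus seen mainly with SGI-1027 alone. SLC38A3, a glutamine transporter, had 4, 4 and 6 with everolimus, 3, 5 and 12 with SGI-1027 and 2, 1 and 1 with the combination. It was lower than with everolimus only at the unadjusted cut-off, which it missed in 10 alternatives, DESeq2 among them. SLC10A5 had 5, 6 and 9 with everolimus and 13, 5 and 8 with the combination, which overlapped.

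Among the 8 genes of muscle and the actin cytoskeleton 3 were higher and 0 lower (29.6% and 5.10% of the set, 2.70% and 1.78% of all genes tested). MYO15B, an unconventional myosin, had 0, 0 and 2 counts with DMSO, 10, 13 and 5 with everolimus, 12, 19 and 21 with SGI-1027, and 22, 25 and 13 with the combination. Its log2 fold change was 1.09 ± 0.44 (edgeR, adjusted p = 0.040) and the call was lost without everolimus replicate 3 or combination replicate 2. XIRP1, the actin-binding Xin protein of muscle, had 1, 5 and 1 against 8, 14 and 8, a log2 fold change of 2.05 ± 0.66 (adjusted p = 0.011). SMPX, a small muscle protein, had one of the highest levels per length, at 0.0181 ± 0.0314 FPKM (SD, n = 3) with DMSO, 0.285 ± 0.152 with everolimus, 0.476 ± 0.268 after SGI-1027 and 0.549 ± 0.173 in the combination. Its SGI-1027 and combination libraries overlapped, and the combination did not pass the test against everolimus at the cut-off (log2 fold change 0.94 ± 0.45).

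Of the 7 extracellular matrix genes, 1 was higher and 1 lower (29.6% and 5.10% of the set, 2.70% and 1.78% of all genes tested). COL4A3, a collagen chain of the glomerular basement membrane, had 0, 0 and 1 counts with DMSO, 5, 2 and 5 with everolimus, 8, 6 and 9 with SGI-1027, and 15, 11 and 20 with the combination. The groups thus stood in order with no overlap, and the rule favours SGI-1027 above DMSO in that order. Its log2 fold change against everolimus was 1.91 ± 0.54 (edgeR, adjusted p = 0.0036). MMP10, the protease stromelysin-2, had 2, 0 and 2 with DMSO, 10, 12 and 24 with everolimus, 13, 12 and 14 with SGI-1027, and 29, 24 and 27 with the combination. Its combination sum was 2.05 times the SGI-1027 sum, and its log2 fold change of 0.80 ± 0.38 against everolimus was below the cut-off (adjusted p = 0.083). COL5A1, a fibrillar collagen chain, had sums of 9, 28, 77 and 51. All its SGI-1027 libraries (22, 18 and 37) lay above those of everolimus (12, 4 and 12), which the choice for high SGI-1027 counts favours. MXRA8, a matrix remodelling protein, had 4, 16 and 9 with everolimus and 6, 1 and 1 with the combination, a log2 fold change of -1.80 ± 0.68 (adjusted p = 0.031) that was lost without everolimus replicate 2 or combination replicate 2.

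**Figure D5:**
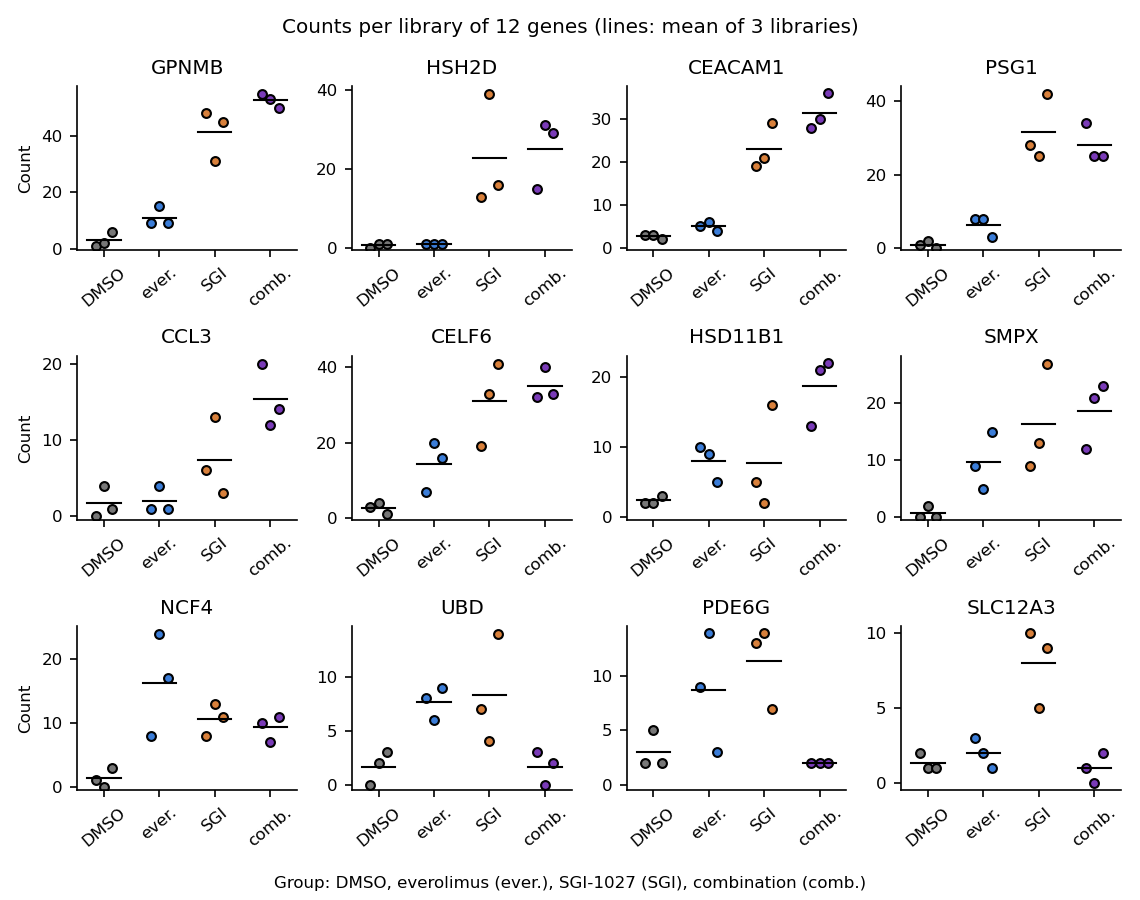
Counts per library (vertical axis, points) of 12 genes in the 4 groups (horizontal axis), with lines at the mean of 3 libraries. GPNMB, HSH2D, CEACAM1 and PSG1 are high wherever SGI-1027 was given, NCF4 is also on with everolimus, and UBD, PDE6G and SLC12A3 have at most 3 counts in each combination library.

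Of the 5 channel and taste receptor genes 2 were higher in the combination than with everolimus (29.6% of the set, 2.70% of all genes tested). TAS2R3, a bitter taste receptor, had 2, 3 and 1 counts with DMSO, 0, 3 and 1 with everolimus, 14, 6 and 6 with SGI-1027, and 3, 11 and 6 with the combination, with a log2 fold change of 2.22 ± 0.83 (edgeR, adjusted p = 0.028) that lost its call without everolimus replicate 1 or combination replicate 2. PKD1L2, of the polycystin family, had 3, 6 and 3 against 14, 18 and 6, where 6 was the lowest combination and the highest everolimus count (log2 fold change 1.64 ± 0.57, adjusted p = 0.017), and its call was lost without combination replicate 2. A total of 9 of the 18 TAS2R genes were tested, of which 4 were higher and 1 lower at the unadjusted cut-off (2.70% and 1.78% of all genes tested were). The lower one, TAS2R14, did not pass after adjustment (edgeR, adjusted p = 0.097). PIEZO2, a mechanosensitive channel, had sums of 6 with DMSO, 19 with everolimus, 25 after SGI-1027 and 12 in the combination, and TMC4 had sums of 6, 30, 47 and 20. Neither passed the test.

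The 11 genes of testis, germ cells and cilia held none past the cut-off in either direction, at the unadjusted p or after adjustment, and their median log2 fold change was 0.17. At the unadjusted p 29.6% of the set were higher and 5.10% lower (2.70% and 1.78% of all genes tested). GAGE2A, a cancer-testis antigen, had the highest level per length of the set with SGI-1027. It was at 0.128 ± 0.148 FPKM (SD, n = 3) with DMSO, 0.328 ± 0.175 with everolimus, 0.639 ± 0.303 after SGI-1027 and 0.324 ± 0.159 in the combination. Its counts with SGI-1027 were 7, 19 and 15 and those with DMSO 6, 0 and 2. The GAGE genes are near-identical copies, so the reads given to GAGE2A are uncertain. ACRBP, an acrosin-binding protein of sperm, had 7, 6 and 13 counts with everolimus, 5, 12 and 25 with SGI-1027 and 11, 7 and 8 with the combination. MAGEC3 had 9, 1 and 11 with SGI-1027 and at most 4 in any other library. The cancer-testis and germline list held 166 genes of the table, 107 of them silent with DMSO, and 3 were in the set (ACRBP, GAGE2A and MAGEC3). The germ cell markers DDX4 and DAZL summed to at most 1 count in any library.

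The remaining 13 genes are little known or exist in several copies, and 2 of them were higher (29.6% of the set, 2.70% of all genes tested). TIAF1 had 0, 1 and 2 counts with everolimus, 3, 11 and 12 with SGI-1027 and 10, 13 and 11 with the combination. Its ratio of the combination to everolimus was 11.4 with a 95% counting interval of 3.58 to 57.9 (edgeR, adjusted p = 0.00031). TIAF1 shares 26.1% of its exon bases with MYO18A on the same strand, and MYO18A had sums of 4446, 4322, 4866 and 4379 counts. CCDC194 had 1, 0 and 2 counts with DMSO, 3, 4 and 4 with everolimus, 9, 21 and 18 with SGI-1027, and 21, 18 and 12 with the combination (log2 fold change 2.18 ± 0.53, adjusted p = 0.00074). LENG9 had 18, 31 and 8 with everolimus, 29, 27 and 27 with SGI-1027 and 14, 23 and 31 with the combination, which did not pass the test. In all, 9 genes of the set share exon bases with another gene of the table, 6 on the same strand and 3 on the opposite one.

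Few genes of the set came from families or lists. The set held no gene of the interferon-stimulated list, which does not show that no gene of the set responds to interferon. Of the 134 tested genes of that list, 68 were higher in the combination than with everolimus (2.70% of all genes were). Of the 146 listed genes in the table, 17 were silent with DMSO. The lists of neuronal genes, p53 targets and ATF4 targets held no gene of the set either. The cytokine list held 2 (CCL3 and IL12RB1), ARHGAP4, CD33 and NCF4 were on the leukocyte list, and the lysosome list held GPNMB. Beside the PSG genes and solute carriers, name families with 3 genes of the set were the cancer-testis prefixes (CTAGE4, GAGE2A, MAGEC3), the cilia and coiled-coil prefixes (CCDC194, ODAD1, SPATA12, of 259 in the table) and the TMEM genes (TMEM132B, TMEM190, TMEM232, of 217).

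Next to SGI-1027 alone, the levels in the combination lay on both sides. The combination sum was above the SGI-1027 sum per library size in 39 of the 98 genes, with a median ratio of 0.87 and a range from 0.13 to 2.43. It was at least 2 times as high in 5 genes and at most 0.5 times as high in 14. All combination libraries lay above all SGI-1027 libraries in 6 genes (6.12%, against 16.9% of all genes) and below them in 9 (9.18%, against 16.3%). These values are described and not tested, since the SGI-1027 libraries chose the genes.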

How the data were processed

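Human 786-O libraries were mapped to their 4 groups from the sample records (3 each). The deposited counts are whole-number reads per gene symbol, not normalized, and the deposited FPKM values are those reads scaled by the authors to library size and gene length. The aligner, counter, strand setting and annotation are not given in the sources used here. The submitters' processing notes name the builds GRCm38 and mm10, which are of mouse, so no coordinates of the counted genes are printed. The records name an RNeasy and SMARTER preparation and the paper a TRIzol and TruSeq one.

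Genes with at least 20 counts over the 12 libraries (13923, all 98 genes of the set among them by the rule) entered a quasi-likelihood fit of the 3 everolimus and 3 combination libraries in edgeR 4.0.16 (R 4.3.3, TMM factors, prior count 0.125), with Benjamini-Hochberg adjustment over all of them. FPKM was used only to compare levels between genes and in limma 3.58.1, with 0.1 added before the log2. Intervals of count ratios are exact 95% ones and cover counting error only. On simulated data for this comparison edgeR recovered 197 of 200 altered genes among 13923 at the unadjusted p, with 53 calls among unaltered genes. At the adjusted p it recovered 195, with 1 such call. The altered genes were drawn only from those above a minimum everolimus count, which many genes of the set did not reach. Their changes were larger than the cut-off, and 1 fixed spread was used for all genes. Recovery at the low counts of the set was not tested.

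The genes, lists and tests were chosen with earlier results of these data known. The roles, and the PSG, CEACAM and TAS2R families, were set after the members had been seen. Named genes were those with the most reads in the everolimus and combination libraries, the largest fold changes at an adjusted p under 0.05 without overlap, the highest FPKM, extreme ratios between groups, families of 3 or more, genes nearest the limits and the most uneven genes, and others were chosen after their values were seen. Some genes that entered the counts and fits are not reported here. Start-site windows came from RefSeq, and gene overlaps from GENCODE 29. Alternatives were DESeq2 1.42.0, upper-quartile factors, other filters, a fit of all 12 libraries, the replicate number as a block, limma on FPKM, other limits of the rule and leaving out each library.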

Additional observations from a re-analysis of the deposited data

How the results depend on the processing

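With other limits the set changed in size, to 15 genes with at most 3 DMSO counts, 173 with at most 20 DMSO counts and 14 with at least 50 SGI-1027 counts. It held 89 genes after scaling to library size. When 1 library was left out and the limits were scaled to the number of libraries left, it held 83 to 131. For the combination against everolimus, DESeq2 called 20 genes of the set higher and 3 lower (328 and 195 over all genes). FilterByExpr left 35 genes of the set, with 17 higher and 0 lower (302 and 161 over all genes). Limma on log2(FPKM + 0.1) called 8 higher and 1 lower (224 and 78 over all genes). Leaving out 1 library gave 22 to 29 higher and 2 to 5 lower in the set (370 to 404 and 229 to 270 over all genes). The lowest counts were 22 higher without everolimus replicate 1, and 2 lower without everolimus replicate 2 or combination replicate 2. The replicate number as a block gave 28 higher and 4 lower (364 and 231 over all genes). Same-numbered libraries correlated at 0.015, -0.02 and 0.035 in their deviations from the group means, against -0.04 to 0.029 for libraries of unlike number. No pairing by number was thus seen, which does not show how the libraries were handled. Of the 34 genes past the cut-off, 8 (GPNMB, HSH2D, CEACAM1, PSG1, CCL3, TIAF1, SBSN and CCDC194) passed it under every alternative that tested them, 13 did so when limma on FPKM was set aside, and none reversed direction. Why limma on FPKM and DESeq2 called fewer was not tested. Most of these genes have under 30 reads in a group, which limits what fold change can be seen, and a call missed here does not show that a gene was unaltered.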

Other observations

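Genes that were silent with DMSO and met the same limits with the combination but not with SGI-1027 alone numbered 50, and their levels are given as values. HLA-G, a class I molecule of the placenta, had sums of 1 count with DMSO, 8 with everolimus, 4 after SGI-1027 and 70 in the combination. HRK, a pro-apoptotic BH3 protein, had sums of 0, 3, 17 and 58, and TMC8 had 1, 8, 13 and 60. ATP6V0D2, a subunit of the vacuolar proton pump, had 6, 4, 13 and 43. The rule turned round found 37 genes that were on with DMSO and silent with the combination, against 8 with everolimus and 10 with SGI-1027.

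Of the 22 genes that met the limits with everolimus but not with SGI-1027, KNDC1 had sums of 7, 32, 17 and 34 in the same order, and SEMA4A, a semaphorin, had 5, 22, 15 and 25. MB, the oxygen carrier myoglobin, had 9, 30, 26 and 14, and missed the set by the 3-fold limit.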
